A study of Arabidopsis thaliana with 24 samples.

Results

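UDP-glycosyltransferases (UGTs) of Arabidopsis thaliana were followed through 12 groups of seedlings on Affymetrix expression arrays. The family was taken as the probe sets annotated to 1 gene whose symbol is UGT followed by a digit. UGT74B1 was left out, which gave 46 candidates, and 35 of them had a mean signal of at least 20 in at least 1 group and were kept, out of 22810 probe sets on the array. The 35 genes belong to 11 subfamilies, named by the number in the symbol. Subfamily 71 has 8 of them, subfamily 76 has 6, subfamily 85 has 5, subfamilies 72 and 73 have 4 each, subfamilies 78 and 84 have 2 each, and subfamilies 74, 80, 87 and 88 have 1 each.

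Seedlings of the Columbia ecotype were taken at 10 days, and the labels do not name an organ. They were wild type (WT), atmyc2, cop1-6, or the atmyc2 cop1-6 double mutant, and WT in the same condition was the control for each mutant. Every genotype was grown at 22 °C in constant darkness, in constant blue light (35 µmol/sec/m2), or in that blue light on medium with abscisic acid (ABA), which the labels give as 0.5 µm. Each group had 2 biological replicates with 1 array each, 24 arrays in all. ABA was in the medium for the whole growth period, so the ABA comparison sets seedlings raised on ABA against seedlings raised without it. The lesions of the mutant alleles are not described in the labels, and no probe set was annotated as MYC2 or COP1 here, so the mutations were not checked by their own transcripts. In bulk RNA of seedlings, fewer cells of a type and less RNA per cell cannot be told apart.

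UGTs move a sugar, most often glucose, from a UDP-sugar onto small acceptors such as flavonoids, hydroxycinnamates, lignin precursors, plant hormones and foreign chemicals. The sugar usually makes the acceptor more soluble and less reactive, and a hormone glucoside is usually an inactive storage form. COP1 marks light-signalling proteins for breakdown and so holds back light-driven development in darkness. AtMYC2 is a DNA-binding regulator that acts in responses to light, jasmonate and ABA. Light-grown seedlings make flavonols and hydroxycinnamate esters as sunscreens, whereas dark-grown seedlings elongate and do not green.

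The deposited values are signal intensities already brought to a common scale. The trimmed mean of an array ran from 98.5 to 99.8 and its median from 26.7 to 41.3. Replicates correlated with r from 0.914 to 0.986 across probe sets, which are not independent replicates. The least alike pair was cop1-6 with ABA, whose replicate 1 was nearest to the double mutant with ABA (r = 0.973) and whose replicate 2 was nearest to WT with ABA (r = 0.942). Both WT, both atmyc2 and both double mutant arrays in blue light, and replicate 2 of cop1-6 in darkness, were also nearest to an array of another genotype. Signals of the poly-A spike-in controls differed by condition, from 861.8 to 986.1 in dark WT and atmyc2, 208.7 to 338.0 in dark cop1-6 and double mutants, 77.3 to 126.3 with ABA, and 5.01 to 12.7 under blue light without it. The log2 ratio of the 3' to the 5' GAPDH control, an RNA quality measure, differed too. It ran from 0.84 to 1.26 in dark WT and atmyc2 and from 0.51 to 0.85 in dark cop1-6 and double mutants. In blue light it ran from 0.39 to 0.74, and with ABA from 0.25 to 0.74. The part of these control differences in the light and ABA results was not tested. It was also not tested in the results that carry the split of the dark arrays. Those are dark cop1-6 against WT, the dark double mutant against atmyc2, and the light responses of cop1-6 and the double mutant compared with WT. Of marker genes looked up by locus, 3 of 7 green leaf markers, 3 of 9 root markers and 0 of 11 seed markers were matched to a probe set here. All 3 green markers (PSAN, SBPASE and PRK, genes of photosynthesis) were higher in blue light than in darkness in every genotype by the limma test described next.

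Tests were made with limma on log2 of the signal plus 1, over 16202 probe sets, and a gene is said to have risen or fallen where the Benjamini-Hochberg adjusted p was under 0.05. Fold changes are on that log2 scale with their standard error (SE), from 2 arrays per group. Signals under 19.1, the 40th percentile of all values, are called dim. Where a group was dim and a pseudocount of 19.1 moved the fold by more than 1.5 times, that second fold is given too or said to be smaller. A call is described as held when it passed with each array of its comparison left out in turn, and otherwise the arrays whose removal ended it are named.

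The 11 candidates under the limit were UGT71B8, UGT73C2, UGT73C7, UGT73D1, UGT74F1, UGT76D1, UGT76E1, UGT78D3, UGT84A1, UGT84B1 and UGT84B2, with highest group means from 4.2 to 15.4. Nearest to the limit were UGT73C7, at 15.4 in the double mutant with ABA, and UGT71B6, kept at 20.7 in WT with ABA. All 35 kept genes passed the filter on dim signal. Some met the limit of 20 in few groups. UGT71B6 met it in WT with ABA alone, UGT73B4 only in cop1-6 and the double mutant with ABA, and UGT85A3 only with ABA. UGT71B5 and UGT72E3 met it only in dark WT and dark atmyc2. UGT73C1 met it only in cop1-6 and the double mutant, in blue light and with ABA, and in WT with ABA. UGT76E12 met it only with ABA and in cop1-6 in blue light. The selection favoured calls of these genes as higher in those groups, so such calls are descriptions. By their highest group mean, 15 of the 35 peaked in a group with ABA, 13 in a dark group and 7 in a blue light group without ABA. The same count was not made over all probe sets, so it does not show a trait of the family. It includes the genes kept through few groups and 4 genes called in no comparison.

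**Figure D1:**
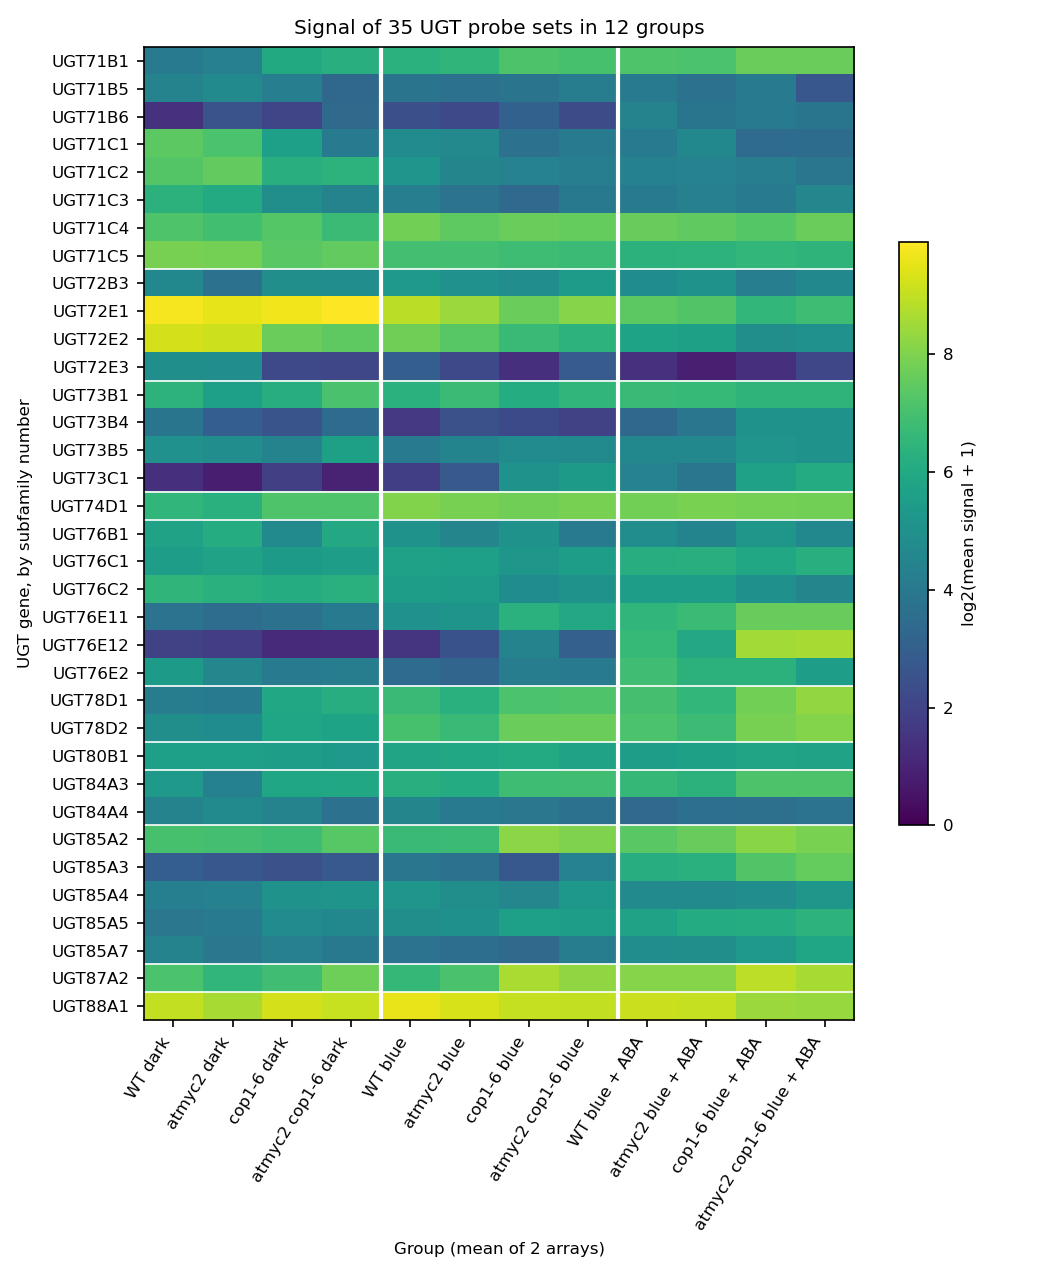
Mean signal of the 35 UGT probe sets (rows, by subfamily) in the 12 groups (columns, 2 arrays each), as log2 of the mean signal plus 1. Rows are to be read across only, since levels of different probe sets are not comparable. UGT71C1, UGT72E1 and UGT72E2 were brightest in dark groups, whereas UGT76E12 and UGT85A3 were brightest in groups with ABA. UGT87A2 was brightest in cop1-6 with ABA and next brightest in cop1-6 in blue light.

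In WT, 10 of the 35 genes rose and 9 fell in blue light against darkness, where 45.9% of all tested probe sets were called, 23.7% higher and 22.2% lower. The genes that rose in all 4 genotypes were UGT71B1, UGT74D1, UGT76E11, UGT78D2, UGT84A3 and UGT85A5. Those that fell in all 4 were UGT71C2, UGT71C5, UGT72E1, UGT72E2 and UGT76C2. No gene was called in opposite directions in different genotypes. In atmyc2 11 rose and 10 fell, beside 54.7% of all probe sets called, 34.4% higher and 20.3% lower. In cop1-6 11 rose and 6 fell, beside 54.1% of all, 30.6% higher and 23.5% lower. In the double mutant 11 rose and 6 fell, beside 39.4% of all, 19.9% higher and 19.4% lower. The median log2 fold change of the 35 genes was -0.04 in WT, -0.14 in atmyc2, 0.05 in cop1-6 and 0.20 in the double mutant, beside -0.02, 0.28, 0.14 and 0.03 for all tested probe sets. Of the calls, 9 of 19 held in WT, 14 of 21 in atmyc2, 10 of 17 in cop1-6 and 10 of 17 in the double mutant. After quantile normalization the atmyc2 split was 8 up and 14 down. The shares of members called were 54.3%, 60.0%, 48.6% and 48.6% in WT, atmyc2, cop1-6 and the double mutant, near the share over all probe sets in each.

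**Figure D2:**
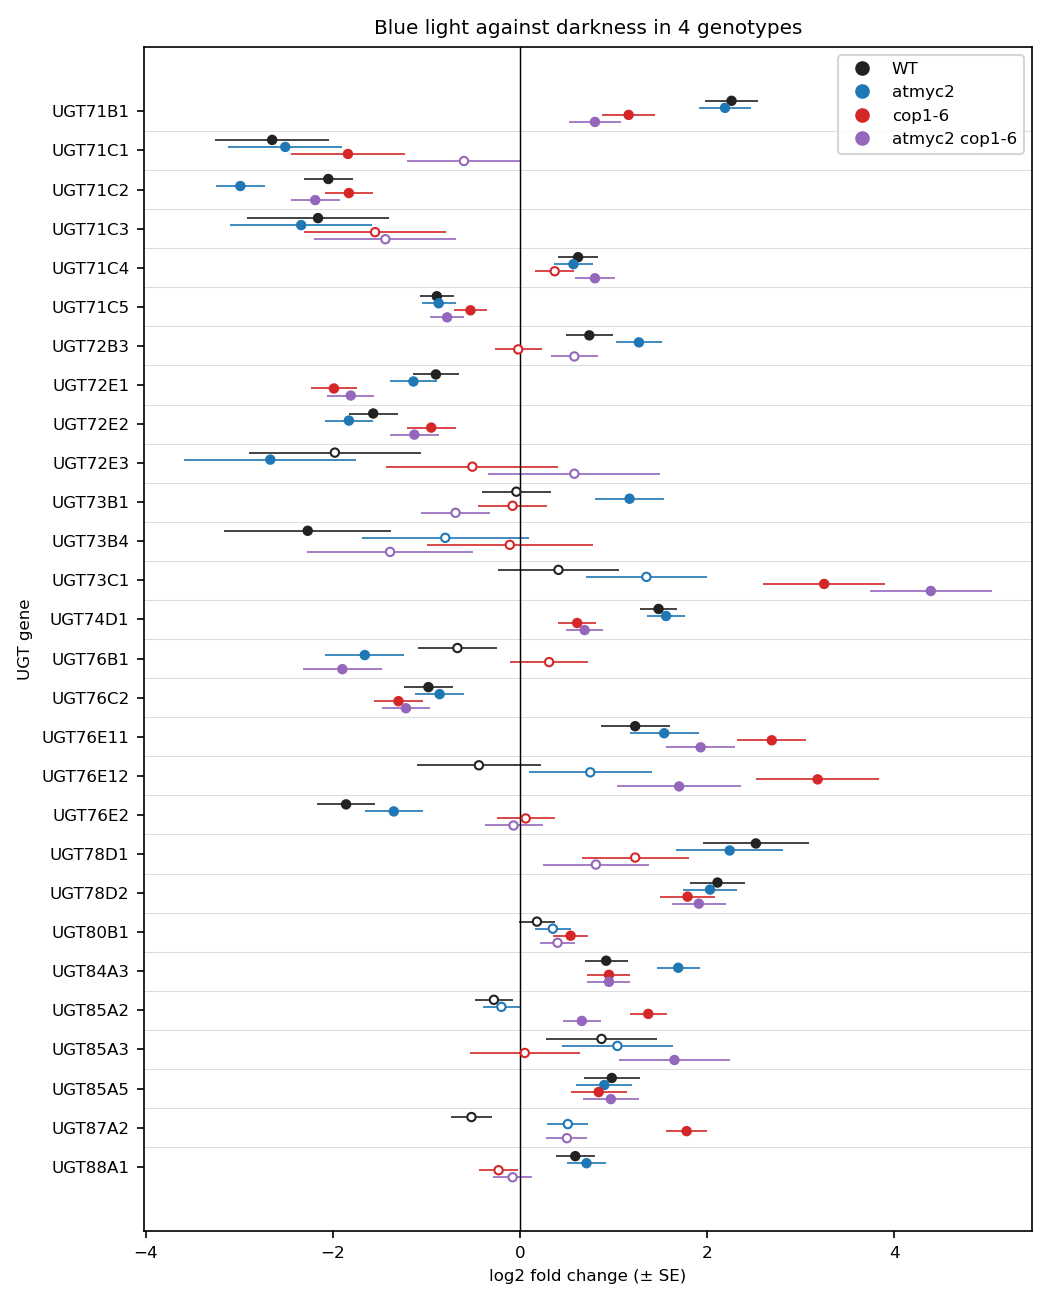
Log2 fold change in blue light over darkness (x axis, ± SE) in the 4 genotypes for every UGT gene called in at least 1 of them. Filled points passed the limma test and open points did not. UGT71C2, UGT72E1 and UGT72E2 lie left of 0 in all 4 genotypes and UGT78D2, UGT76E11 and UGT84A3 lie right of it.

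Raising seedlings on ABA raised 10 and lowered 5 of the 35 genes in WT, where 34.9% of all probe sets were called, 19.3% higher and 15.6% lower. In atmyc2 7 rose and 3 fell, beside 21.8% of all, 10.7% higher and 11.1% lower. In cop1-6 4 rose and 3 fell, beside 13.4% of all, 5.86% higher and 7.58% lower. In the double mutant 6 rose and 5 fell, beside 23.3% of all, 9.93% higher and 13.4% lower. UGT76E11, UGT76E12, UGT76E2 and UGT85A3 rose in all 4 genotypes, and UGT72E1 and UGT72E2 fell in all 4. The cop1-6 count was 5 without its ABA replicate 1 and 11 without replicate 2. The median log2 fold change of the family was 0.30, 0.11, 0.25 and 0.27 in WT, atmyc2, cop1-6 and the double mutant, beside 0.10, 0.03, -0.01 and -0.03 for all tested probe sets. Calls that held numbered 6 of 15 in WT, 4 of 10 in atmyc2, 4 of 7 in cop1-6 and 6 of 11 in the double mutant. The light and ABA comparisons of a genotype share its blue light arrays. Control and tissue values moved with ABA too. The control probe set for 25S ribosomal RNA read 769.5 to 2762.5 on the 8 arrays with ABA and 4.6 to 189.9 on the other 16. Of the 3 green markers, 3 were called lower with ABA in WT, 2 in atmyc2, 3 in cop1-6 and 3 in the double mutant. In WT, SBPASE differed by -1.29 ± 0.20 (adjusted p = 8.6e-05), PRK by -0.92 ± 0.22 (adjusted p = 0.00384) and PSAN by -0.65 ± 0.15 (adjusted p = 0.00347). The root marker EXPA18, an expansin of root hairs, was called lower with ABA in the double mutant (-4.06 ± 0.90, adjusted p = 0.00391). The other matched root markers were not called there, with EXPA7 at -1.74 ± 0.98 and PYK10 at 0.27 ± 0.14. The part of these changes in the UGT results with ABA was not tested.

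**Figure D3:**
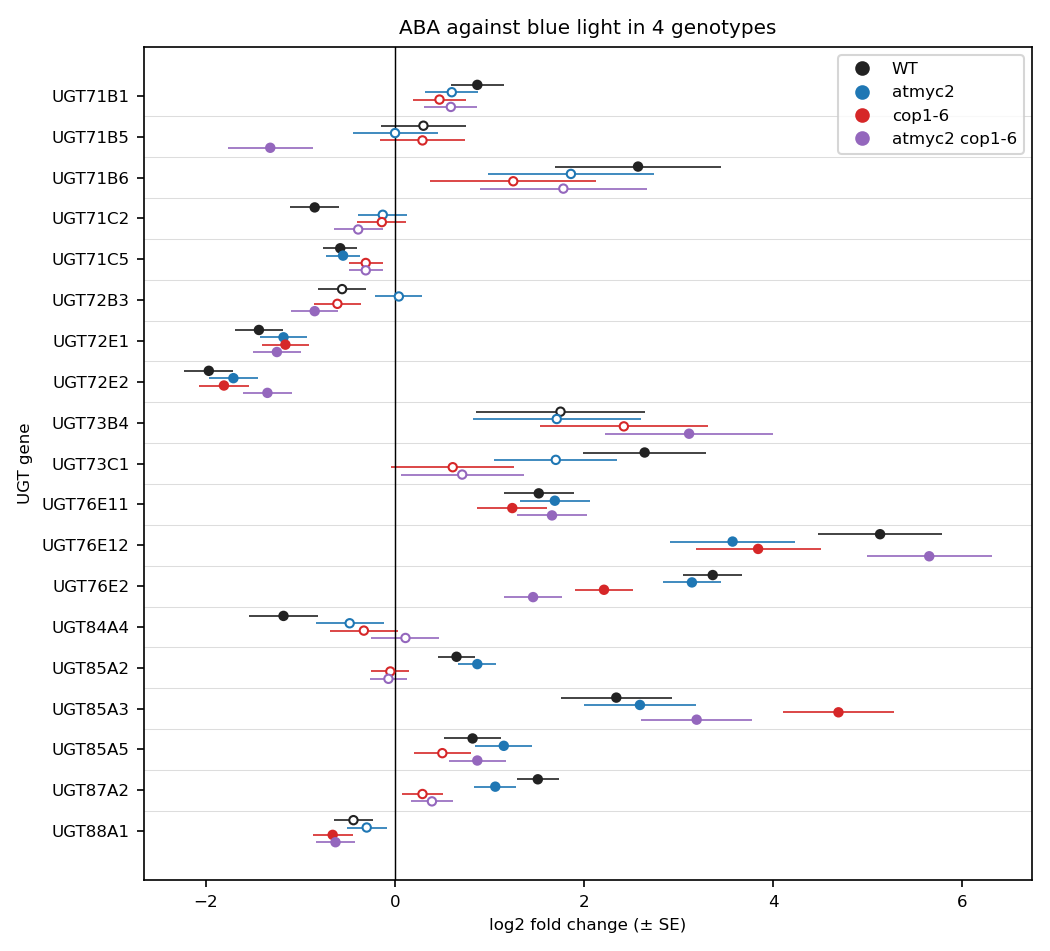
Log2 fold change in blue light with ABA over blue light alone (x axis, ± SE) in the 4 genotypes for every UGT gene called in at least 1 of them. Filled points passed the limma test and open points did not. UGT76E12 lies furthest to the right in WT at 5.13, and UGT72E2 furthest to the left at -1.97.

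The flavonol enzymes come first. UGT78D1 adds rhamnose and UGT78D2 adds glucose to the 3-hydroxyl group of flavonols, and both rose in WT in blue light. UGT78D1 had group means of 15.8 to 316, and in darkness it read 21.7 and 13 in WT, 16.3 and 15.2 in atmyc2, 46.4 and 70.4 in cop1-6, and 79.2 and 64 in the double mutant. In blue light it read 99.8 and 103 in WT, 81.7 and 74.6 in atmyc2, 117 and 157 in cop1-6, and 213 and 73.7 in the double mutant. With ABA, UGT78D1 read 144 and 111 in WT, 96 and 92.7 in atmyc2, 373 and 66 in cop1-6, and 340.5 and 291 in the double mutant. Both blue light arrays of WT lay above both dark ones, and dark cop1-6 and double mutant arrays lay above every dark WT and atmyc2 array. Its log2 fold change in WT light was 2.52 ± 0.57 (adjusted p = 0.00168), and 1.74 with the higher pseudocount, and this call held. It also rose in light in atmyc2, by 2.24 ± 0.57 (adjusted p = 0.00321), and this call held. The dark atmyc2 arrays were dim, so this fold too is smaller with the higher pseudocount. The 2 cop1-6 arrays with ABA lay far apart, and UGT78D1 was called with ABA in no genotype.

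UGT78D2, with group means of 27 to 269, read 32.6 and 25.7 in WT, 16.4 and 37.6 in atmyc2, 67.5 and 47.1 in cop1-6, and 49.4 and 57.2 in the double mutant in darkness. The readings in blue light were 129 and 127 in WT, 113.5 and 97.1 in atmyc2, 225 and 174 in cop1-6, and 240.3 and 170.1 in the double mutant. With ABA, UGT78D2 read 129 and 147 in WT, 116 and 104 in atmyc2, 269 and 207 in cop1-6, and 278 and 260.2 in the double mutant. It rose in light by 2.11 ± 0.29 (adjusted p = 8.13e-06) in WT, and by 2.03 ± 0.29, 1.79 ± 0.29 and 1.91 ± 0.29 in atmyc2, cop1-6 and the double mutant, and all 4 calls held. UGT78D2 was called with ABA in no genotype. With ABA its arrays in the double mutant lay above both atmyc2 arrays, a log2 difference of 1.28 ± 0.29 (adjusted p = 0.0137), but this call ended without any one of its 4 arrays (adjusted p from 0.0906 to 0.118).

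UGT88A1, which glucosylates flavonols in vitro, had group means of 336 to 769.5 and rose in light in WT (0.59 ± 0.21, adjusted p = 0.0298) and in atmyc2 (0.71 ± 0.21, adjusted p = 0.00831). The WT call ended without WT dark replicate 1 (adjusted p = 0.245) or WT blue replicate 1 (adjusted p = 0.29) and the atmyc2 call without atmyc2 dark replicate 1 (adjusted p = 0.06). With ABA it fell in cop1-6 (-0.66 ± 0.21, adjusted p = 0.0456) and in the double mutant (-0.63 ± 0.21, adjusted p = 0.0398). The first of these was lost without either cop1-6 blue array or cop1-6 ABA replicate 1 (adjusted p from 0.157 to 0.5) and the second without any one of its 4 arrays (adjusted p from 0.0653 to 0.251). Among enzymes that make flavonoids, only DFR, dihydroflavonol reductase of the anthocyanin branch, could be matched and tested. Its group means were 6.9, 9, 8.2 and 5.8 in darkness (WT, atmyc2, cop1-6, double mutant), 11.5, 7.4, 83.2 and 53.7 in blue light, and 19, 15.1, 265.9 and 227.7 with ABA.

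UGT71B1 was called in many of the same comparisons as these flavonol genes. Its group means spanned 15.7 to 200.2, and its dark readings were 14.2 and 17.2 in WT, 21.8 and 16.1 in atmyc2, 47.4 and 81.4 in cop1-6, and 65.8 and 84.1 in the double mutant. Those in blue light were 98.6 and 62.6 in WT, 86.8 and 91.1 in atmyc2, 137.5 and 142 in cop1-6, and 143 and 119 in the double mutant. With ABA, UGT71B1 read 130.0 and 160.3 in WT, 127 and 145 in atmyc2, 240.5 and 157 in cop1-6, and 168 and 232 in the double mutant. It rose in light in WT by 2.26 ± 0.28 (adjusted p = 2.55e-06, 1.50 with the higher pseudocount) and in atmyc2 by 2.19 ± 0.28 (1.51), and both calls held. The rises of 1.16 ± 0.28 in cop1-6 and 0.80 ± 0.28 in the double mutant were lost without cop1-6 dark replicate 1 (adjusted p = 0.0542) and without double mutant dark replicate 1 (adjusted p = 0.182) or double mutant blue replicate 1 (adjusted p = 0.147). With ABA it rose in WT by 0.87 ± 0.28 (adjusted p = 0.0215), a call that ended without WT blue replicate 2 (adjusted p = 0.191) or WT ABA replicate 2 (adjusted p = 0.144).

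Hydroxycinnamates and monolignols each have their own UGTs. UGT84A3 and UGT84A4 make glucose esters of hydroxycinnamates, among them the sinapoyl glucose used in sunscreens. UGT72E1, UGT72E2 and UGT72E3 glucosylate monolignols and their aldehydes, with UGT72E2 the main enzyme for coniferin. UGT84A3 rose in light in every genotype, whereas UGT72E1 and UGT72E2 fell in every genotype in light and again with ABA.

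UGT84A3, with group means of 19.8 to 141, read 45.1 and 32.3 in WT, 18.3 and 21.2 in atmyc2, 60.4 and 55.2 in cop1-6, and 58.3 and 60.9 in the double mutant in darkness. Its blue light readings were 81.5 and 65.9 in WT, 50.2 and 86 in atmyc2, 114 and 111 in cop1-6, and 111 and 121 in the double mutant. With ABA, UGT84A3 read 101 and 91.1 in WT, 76.5 and 86.7 in atmyc2, 124 and 154 in cop1-6, and 129 and 152 in the double mutant. The 2 dark atmyc2 arrays lay below all other dark arrays. The light response was 0.92 ± 0.23 (adjusted p = 0.0027) in WT, where the call ended without WT dark replicate 2 (adjusted p = 0.0527), and 1.69 ± 0.23, 0.95 ± 0.23 and 0.95 ± 0.23 in atmyc2, cop1-6 and the double mutant, where the calls held. UGT84A4 was dimmer, and in WT it read 23 and 18.1 in darkness, 25.5 and 19.2 in blue light and 12.4 and 6.8 with ABA, with group means over all groups of 9.6 to 24.9. In the mutants it read 24.8 and 25.1 in atmyc2, 22.7 and 18.4 in cop1-6 and 13.3 and 11.1 in the double mutant in darkness, 17.3 and 14.8, 14.2 and 15.1 and 9.6 and 14.1 in blue light, and 12.4 and 10.1, 10.8 and 12.2 and 15.1 and 10.6 with ABA. It fell with ABA in WT, with a log2 change of -1.18 ± 0.36 (adjusted p = 0.0157, -0.53 with the higher pseudocount), and the call ended without WT blue replicate 1 (adjusted p = 0.132) or WT ABA replicate 2 (adjusted p = 0.181).

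UGT72E2, with group means of 29.1 to 623, read 652 and 594 in WT, 557 and 579 in atmyc2, 227.5 and 181 in cop1-6, and 178 and 175.5 in the double mutant in darkness. It read 263 and 165 in WT, 136 and 186 in atmyc2, 104 and 104 in cop1-6, and 107 and 60.4 in the double mutant in blue light. With ABA, UGT72E2 read 46.5 and 58.8 in WT, 56.6 and 40.4 in atmyc2, 26.8 and 31.3 in cop1-6, and 34.3 and 27.9 in the double mutant. In each genotype both dark arrays lay above both blue light arrays, and both blue light arrays above both ABA arrays. The light response was -1.57 ± 0.26 (adjusted p = 7.21e-05) in WT and -1.83 ± 0.26 in atmyc2, both held. In cop1-6 it was -0.95 ± 0.26, lost without cop1-6 dark replicate 1 (adjusted p = 0.059), and in the double mutant -1.13 ± 0.26, lost without double mutant blue replicate 2 (adjusted p = 0.0587). The ABA response was -1.97 ± 0.26 (adjusted p = 2.31e-05) in WT, -1.71 ± 0.26 in atmyc2, -1.81 ± 0.26 in cop1-6 and -1.35 ± 0.26 in the double mutant, and all 4 calls held.

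For UGT72E1, with group means of 94.5 to 964, the dark readings were 905 and 835 in WT, 761 and 735 in atmyc2, 973 and 689 in cop1-6, and 1024 and 904 in the double mutant. In blue light they were 592 and 363.5 in WT, 352 and 326 in atmyc2, 184.5 and 229 in cop1-6, and 327 and 228 in the double mutant. With ABA, UGT72E1 read 157 and 185 in WT, 159 and 139.6 in atmyc2, 119 and 70.1 in cop1-6, and 121 and 108 in the double mutant. The order dark, blue light, ABA was again free of overlap within every genotype. In light it fell, with log2 changes of -0.90 ± 0.25 (adjusted p = 0.00643) in WT, a call lost without WT blue replicate 2 (adjusted p = 0.127), and -1.14 ± 0.25, -1.99 ± 0.25 and -1.81 ± 0.25 in the 3 mutants, where it held. With ABA it changed by -1.44 ± 0.25 (adjusted p = 3.07e-04) in WT, -1.18 ± 0.25 in atmyc2, -1.16 ± 0.25 in cop1-6 and -1.25 ± 0.25 in the double mutant. Only the cop1-6 ABA call among these was lost, without cop1-6 blue replicate 2 (adjusted p = 0.0597).

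UGT72E3 was above the dim level in 2 groups, WT and atmyc2 in darkness. It was kept through those groups alone, so the selection favoured its falls from them. Its group means spanned 0.85 to 29.8, and in darkness it read 26.7 and 32.8 in WT, 26.8 and 29.9 in atmyc2, 0.8 and 6.3 in cop1-6, and 5.7 and 0.9 in the double mutant. The light-grown arrays were all dim, at 8.4 and 5.4 in WT, 3.7 and 3.5 in atmyc2, 1.6 and 1.5 in cop1-6, and 10.8 and 1.4 in the double mutant in blue light. With ABA, UGT72E3 read 2 and 1.3 in WT, 1.1 and 0.6 in atmyc2, 2.7 and 0.4 in cop1-6, and 0.7 and 5.9 in the double mutant. It fell in light in atmyc2, with a log2 change of -2.67 ± 0.92 (adjusted p = 0.0198, -1.06 with the higher pseudocount), a call lost without any one of its 4 arrays (adjusted p from 0.063 to 0.084). The last member of the subfamily, UGT72B3, had group means of 12.4 to 43.5 and read 21.3 and 26.2 in WT, 10.1 and 14.8 in atmyc2, 29 and 28.3 in cop1-6, and 27.1 and 29.7 in the double mutant in darkness. In blue light UGT72B3 read 46.1 and 34.9 in WT, 29.8 and 32.1 in atmyc2, 29.1 and 27.3 in cop1-6, and 49.4 and 37.5 in the double mutant. With ABA, UGT72B3 read 25.2 and 28.7 in WT, 35.7 and 28.3 in atmyc2, 18.7 and 17.5 in cop1-6, and 23.2 and 23.6 in the double mutant. Both dark atmyc2 arrays and both cop1-6 arrays with ABA were dim. It rose in light in WT by 0.74 ± 0.25 (adjusted p = 0.0232), lost without WT dark replicate 1 (adjusted p = 0.136) or WT blue replicate 1 (adjusted p = 0.168), and in atmyc2 by 1.27 ± 0.25 (adjusted p = 3.47e-04, 0.67 with the higher pseudocount), held. With ABA it fell in the double mutant, with a log2 change of -0.85 ± 0.25 (adjusted p = 0.0204), lost without double mutant blue replicate 1 or either double mutant ABA array (adjusted p from 0.0891 to 0.16). HCT, the hydroxycinnamoyl transferase upstream of monolignols, had dark group means of 1823, 1742, 899 and 722.9 in WT, atmyc2, cop1-6 and the double mutant, and blue light means of 711.7, 593.1, 416.9 and 348.4. It fell in light in all 4 genotypes. ALDH2C4, another tested gene of phenylpropanoid synthesis, went both ways by limma. In light it fell in WT (-0.64 ± 0.24, adjusted p = 0.0364) and rose in cop1-6 (0.70 ± 0.24, adjusted p = 0.0188). It was not called in atmyc2 (0.23 ± 0.24) or the double mutant (-0.36 ± 0.24).

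**Figure D4:**
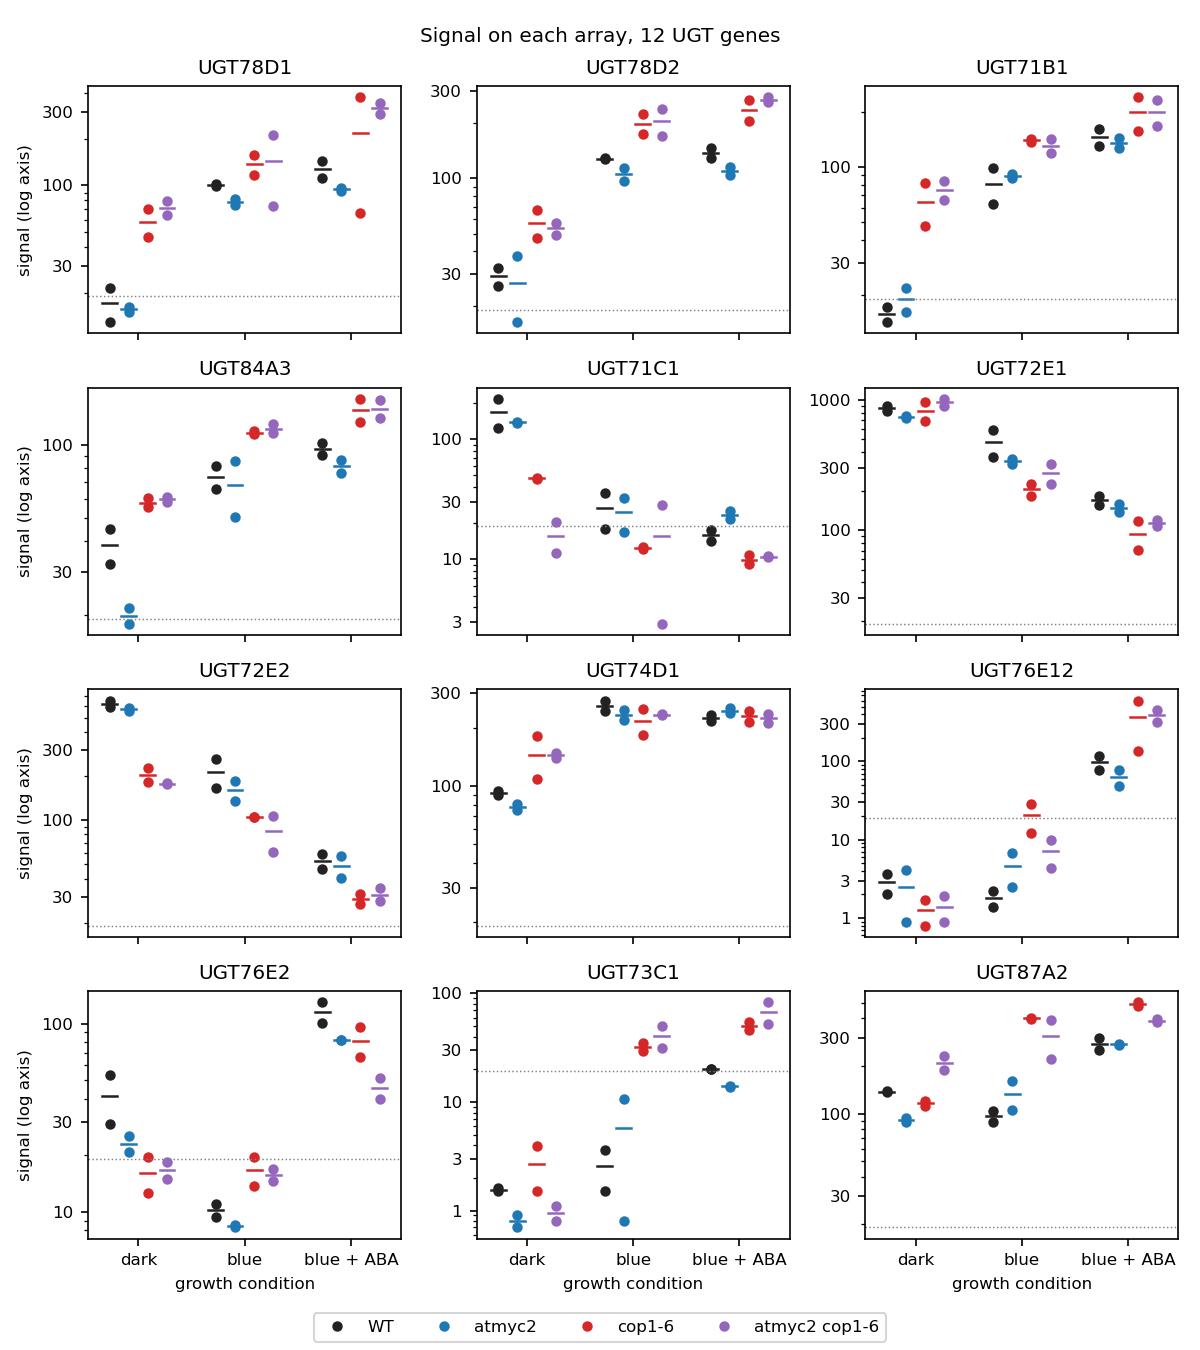
Signal on each of the 24 arrays (points, log axis) for 12 UGT genes in darkness, blue light and blue light with ABA, coloured by genotype, with bars at the group means and the dim level of 19.1 as a dotted line. UGT72E1 and UGT72E2 step down from darkness to ABA in every genotype, UGT76E12 is above the dim level on all arrays with ABA, and the cop1-6 arrays with ABA lie far apart for UGT78D1 and UGT76E12.

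Subfamily 71 holds a run of genes that were high in darkness. UGT71C1, known for glucosylating lignans and with group means of 9.95 to 171, read 124 and 217 in WT, 137 and 139.6 in atmyc2, 48 and 46.8 in cop1-6, and 20.3 and 11.2 in the double mutant in darkness. It read 17.8 and 36 in WT, 32.4 and 16.8 in atmyc2, 12.8 and 12.2 in cop1-6, and 28.2 and 2.9 in the double mutant in blue light. With ABA, UGT71C1 read 17.7 and 14.2 in WT, 25.3 and 21.5 in atmyc2, 10.8 and 9.1 in cop1-6, and 10.6 and 10.4 in the double mutant. Dark WT and atmyc2 arrays lay above every other array, followed by dark cop1-6. The light response was -2.65 ± 0.61 (adjusted p = 0.00177) in WT (-2.03 with the higher pseudocount) and -2.51 ± 0.61 in atmyc2 (-1.87), both held. It was -1.84 ± 0.61 in cop1-6 (-1.07), a call lost without any one of its 4 arrays (adjusted p from 0.0562 to 0.0745).

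UGT71C2, the neighbouring gene, had group means of 13.8 to 183 and read 170.1 and 136 in WT, 203 and 162.5 in atmyc2, 79.9 and 66.7 in cop1-6, and 92.8 and 77.5 in the double mutant in darkness. Its readings were 38.5 and 33.6 in WT, 28.4 and 16.9 in atmyc2, 20.3 and 19.4 in cop1-6, and 17.7 and 18 in the double mutant in blue light. With ABA, UGT71C2 read 20.9 and 18.1 in WT, 17.8 and 22.3 in atmyc2, 18.8 and 17.1 in cop1-6, and 10.7 and 16.8 in the double mutant. The fall in light was -2.05 ± 0.26 (adjusted p = 4.49e-06) in WT, -2.99 ± 0.26 in atmyc2 (-2.28 with the higher pseudocount), -1.83 ± 0.26 in cop1-6 (-1.24) and -2.19 ± 0.26 in the double mutant (-1.49), and all 4 calls held. In each genotype every dark array lay above every light-grown array. With ABA it fell again in WT, with a log2 change of -0.85 ± 0.26 (adjusted p = 0.018), lost without WT blue replicate 1 or either WT ABA array (adjusted p from 0.0532 to 0.117).

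UGT71C3, UGT71C4 and UGT71C5 lie side by side in the genome, and the annotated spans of UGT71C3 and UGT71C4 overlap, so their probe sets may share transcripts. UGT71C3 read 91 and 70.5 in dark WT and 22.5 and 13 in WT in blue light, a log2 change of -2.16 ± 0.76 (adjusted p = 0.028, -1.44 with the higher pseudocount) that was lost without either WT dark array or WT blue replicate 2 (adjusted p from 0.0683 to 0.157). In atmyc2 it fell, with a log2 change of -2.34 ± 0.76 (adjusted p = 0.0151, -1.43 with the higher pseudocount), lost without atmyc2 dark replicate 2 (adjusted p = 0.0746) or atmyc2 blue replicate 2 (adjusted p = 0.11), and its group means ran over 9.4 to 80.8. The other arrays of UGT71C3 read 59.6 and 72.4 in atmyc2, 31.5 and 26.9 in cop1-6 and 20.2 and 21.2 in the double mutant in darkness, and 16.1 and 9.1, 11 and 7.8 and 29.5 and 1.1 in blue light. With ABA it read 13.6 and 18.1 in WT, 21.6 and 16 in atmyc2, 21.6 and 10 in cop1-6, and 18.1 and 27.6 in the double mutant. UGT71C5, which glucosylates ABA, had group means of 82.2 to 232. It read 271 and 193 in WT, 216 and 240.1 in atmyc2, 174 and 159 in cop1-6, and 186 and 181 in the double mutant in darkness. In blue light UGT71C5 read 121 and 126 in WT, 118.5 and 130.2 in atmyc2, 117 and 112 in cop1-6, and 119 and 95.7 in the double mutant. With ABA, UGT71C5 read 84.9 and 79.5 in WT, 82.4 and 86.4 in atmyc2, 104 and 82.3 in cop1-6, and 81.5 and 89.8 in the double mutant. It fell in light, with log2 changes of -0.89 ± 0.18 in WT, -0.87 ± 0.18 in atmyc2, -0.53 ± 0.18 in cop1-6 and -0.78 ± 0.18 in the double mutant, and only the cop1-6 call was lost, without cop1-6 dark replicate 1 (adjusted p = 0.0901) or cop1-6 blue replicate 2 (adjusted p = 0.0751). On ABA, its own acceptor, it fell further in WT (-0.58 ± 0.18, adjusted p = 0.0155) and atmyc2 (-0.55 ± 0.18, adjusted p = 0.03), calls lost without any one of its 4 arrays (adjusted p from 0.0513 to 0.091) in WT and without any one of its 4 arrays (adjusted p from 0.0837 to 0.148) in atmyc2. UGT71C4 went the other way in light, with group means of 107 to 221 and rises of 0.62 ± 0.21 in WT, 0.57 ± 0.21 in atmyc2 and 0.80 ± 0.21 in the double mutant. The last of these held, the WT call was lost without WT dark replicate 2 (adjusted p = 0.249) or WT blue replicate 1 (adjusted p = 0.275) and the atmyc2 call without any one of its 4 arrays (adjusted p from 0.0608 to 0.124).

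UGT71B6 also glucosylates ABA. It was dim in all groups but WT with ABA, where it read 26.4 and 15, beside 8.5 and 0.3 in WT blue light, and its group means ran over 1.7 to 20.7. UGT71B6 was kept through WT with ABA alone, so the selection favoured the rise that follows. The rise in WT with ABA was 2.57 ± 0.88 (adjusted p = 0.0304, 0.77 with the higher pseudocount, and 4.01 without WT blue replicate 1). This call was lost without WT blue replicate 2 or either WT ABA array (adjusted p from 0.0629 to 0.348). UGT71B5 had group means of 5.45 to 24.8 and was called in responses only as a fall with ABA in the double mutant, -1.32 ± 0.45 (adjusted p = 0.0427, -0.53 with the higher pseudocount, adjusted p = 0.0624), from 27 and 8.2 to 5.5 and 5.4. It was -2.12 without double mutant blue replicate 2, and the call was lost without double mutant blue replicate 1 or either double mutant ABA array (adjusted p from 0.133 to 0.503).

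Hormone and immune enzymes were next compared. UGT74D1, which glucosylates auxin and oxidised auxin, had group means of 78 to 259 and read 89.7 and 94.1 in WT, 80.5 and 75.6 in atmyc2, 108 and 180.2 in cop1-6, and 148 and 140.1 in the double mutant in darkness. It read 275 and 243 in WT, 245.5 and 219 in atmyc2, 184 and 251 in cop1-6, and 232 and 234 in the double mutant in blue light. With ABA, UGT74D1 read 232 and 216 in WT, 252 and 236.5 in atmyc2, 213 and 243.5 in cop1-6, and 211.5 and 236 in the double mutant. The rise in light was 1.48 ± 0.20 (adjusted p = 5.99e-06) in WT and 1.56 ± 0.20 in atmyc2, both held, and 0.61 ± 0.20 in cop1-6 and 0.69 ± 0.20 in the double mutant. The cop1-6 call was lost without cop1-6 dark replicate 1 (adjusted p = 0.309) or cop1-6 blue replicate 2 (adjusted p = 0.177) and the double mutant call without double mutant dark replicate 2 (adjusted p = 0.0638). It was called with ABA in no genotype.

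UGT76C1 and UGT76C2 glucosylate cytokinins and lie next to each other. UGT76C2 had group means of 22.6 to 89.4 and read 81.4 and 97.4 in WT, 72.8 and 82.9 in atmyc2, 58.2 and 81.1 in cop1-6, and 79.6 and 75.8 in the double mutant in darkness. It read 38.4 and 52.2 in WT, 41.5 and 43.3 in atmyc2, 28.2 and 26.5 in cop1-6, and 34.8 and 31 in the double mutant in blue light. With ABA, UGT76C2 read 46.7 and 43.2 in WT, 52.5 and 39.9 in atmyc2, 20.7 and 40.8 in cop1-6, and 22.2 and 23.1 in the double mutant. It fell in light in all 4 genotypes, with log2 changes of -0.98 ± 0.26 in WT, -0.86 ± 0.26 in atmyc2, -1.30 ± 0.26 in cop1-6 and -1.22 ± 0.26 in the double mutant. The WT call was lost without WT dark replicate 2 (adjusted p = 0.0522) or WT blue replicate 1 (adjusted p = 0.064), the atmyc2 call without atmyc2 dark replicate 2 (adjusted p = 0.0701), and the other two held. UGT76C1 had group means of 36.8 to 76.1 and was called in no comparison. UGT76B1, which acts in immunity on N-hydroxypipecolic acid and salicylic acid, had group means of 15.8 to 70.3. It fell in light in atmyc2 and in the double mutant, with log2 changes of -1.66 ± 0.42 (adjusted p = 0.00262) and -1.90 ± 0.42 (adjusted p = 0.00152, -1.20 with the higher pseudocount), both held.

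ABA raised genes of subfamilies 76, 73 and 85 in WT, among others. UGT76E12, with group means of 1.25 to 389, read 3.7 and 2 in WT, 0.9 and 4.1 in atmyc2, 0.8 and 1.7 in cop1-6, and 1.9 and 0.9 in the double mutant in darkness. In blue light it read 2.2 and 1.4 in WT, 2.5 and 6.8 in atmyc2, 12.3 and 29 in cop1-6, and 4.3 and 10 in the double mutant. With ABA, UGT76E12 read 118 and 77.8 in WT, 48.6 and 77.1 in atmyc2, 597 and 135 in cop1-6, and 318 and 459 in the double mutant. All 8 arrays with ABA lay above all 16 others. UGT76E12 was kept only through its groups with ABA and cop1-6 in blue light, so the selection favoured its rises there. The rise with ABA was 5.13 ± 0.66 (adjusted p = 1.81e-05) in WT, 3.57 ± 0.66 in atmyc2, 3.84 ± 0.66 in cop1-6 and 5.65 ± 0.66 in the double mutant, and all 4 calls held. With the higher pseudocount these were 2.46, 1.77, 2.99 and 3.94. The cop1-6 rise was 2.77 without its ABA replicate 1, 4.90 without ABA replicate 2 and 3.25 without blue replicate 1. In light alone UGT76E12 rose in cop1-6 by 3.18 ± 0.66 (adjusted p = 5.92e-04), a call that held but ran from 2.59 without cop1-6 blue replicate 2 to 3.77 without replicate 1. At the higher pseudocount this was 0.93 with an adjusted p of 0.0765, so that the call was lost. In the double mutant it rose by 1.70 ± 0.66 (adjusted p = 0.0489), lost without either double mutant dark array or double mutant blue replicate 2 (adjusted p from 0.0758 to 0.281) and 0.35 (adjusted p = 0.548) at the higher pseudocount.

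UGT76E11, a near neighbour of UGT76E12 that glucosylates flavonols in vitro, had group means of 10.6 to 197. It read 14.9 and 10.4 in dark WT, and in blue light 25.9 and 36.3 in WT, 24 and 44 in atmyc2, 75.2 and 82.8 in cop1-6, and 50.7 and 73.6 in the double mutant. With ABA, UGT76E11 read 106 and 76.8 in WT, 104 and 110.5 in atmyc2, 257 and 136 in cop1-6, and 199 and 190.1 in the double mutant. It rose in light by 1.23 ± 0.37 in WT, 1.54 ± 0.37 in atmyc2, 2.69 ± 0.37 in cop1-6 and 1.93 ± 0.37 in the double mutant, and only the WT call was lost, without WT dark replicate 2 (adjusted p = 0.0982) or WT blue replicate 2 (adjusted p = 0.0929). With the higher pseudocount the last 3 were 0.81, 1.66 and 1.23. The cop1-6 value was 2.10 without dark replicate 1 and 3.28 without dark replicate 2. ABA raised it by a further 1.52 ± 0.37 in WT, 1.69 ± 0.37 in atmyc2, 1.24 ± 0.37 in cop1-6 and 1.66 ± 0.37 in the double mutant. The WT call was lost without WT blue replicate 1 (adjusted p = 0.0578) or WT ABA replicate 1 (adjusted p = 0.0581), the atmyc2 call without atmyc2 blue replicate 1 (adjusted p = 0.0723) and the cop1-6 call without either cop1-6 blue array or cop1-6 ABA replicate 1 (adjusted p from 0.107 to 0.333).

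UGT76E2, with group means of 8.4 to 115, read 53.6 and 29.2 in WT, 20.8 and 25.2 in atmyc2, 19.7 and 12.6 in cop1-6, and 14.9 and 18.5 in the double mutant in darkness. In blue light UGT76E2 read 9.4 and 11 in WT, 8.3 and 8.5 in atmyc2, 13.7 and 19.7 in cop1-6, and 14.6 and 17 in the double mutant. With ABA, UGT76E2 read 129 and 100.2 in WT, 81.9 and 81.9 in atmyc2, 66.5 and 96 in cop1-6, and 51.4 and 39.8 in the double mutant. In WT and atmyc2 blue light arrays lay below dark ones, and ABA arrays lay above both. It fell in light in WT and atmyc2, with log2 changes of -1.86 ± 0.31 (adjusted p = 8.41e-05, -1.02 with the higher pseudocount) and -1.35 ± 0.31 (adjusted p = 0.00134, -0.61 with the higher pseudocount), both held. The rise with ABA was 3.36 ± 0.31 (adjusted p = 6.94e-07) in WT (2.18), 3.14 ± 0.31 in atmyc2 (1.88), 2.21 ± 0.31 in cop1-6 (1.48) and 1.46 ± 0.31 in the double mutant, and all 4 calls held.

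UGT73C1, which can O-glucosylate the cytokinin zeatin, read 0.7 to 3.9 on all dark arrays. In blue light it read 1.5 and 3.6 in WT, 10.7 and 0.8 in atmyc2, 29.6 and 35.3 in cop1-6, and 50.3 and 31.2 in the double mutant. With ABA, UGT73C1 read 20.2 and 20 in WT, 13.8 and 14.1 in atmyc2, 54.7 and 45.6 in cop1-6, and 52 and 82.7 in the double mutant. Blue light arrays of cop1-6 and the double mutant were above all blue light arrays of WT and atmyc2. UGT73C1 was kept only through light-grown cop1-6 and double mutant groups and WT with ABA, so the selection favoured its higher values there. It rose in light in cop1-6 by 3.25 ± 0.65 (adjusted p = 4.02e-04, 1.24 with the higher pseudocount) and in the double mutant by 4.39 ± 0.65 (adjusted p = 4.05e-05, 1.56 with the higher pseudocount), both held. With ABA it rose in WT by 2.64 ± 0.65 (adjusted p = 0.00442, 0.86 with the higher pseudocount), lost without WT blue replicate 1 (adjusted p = 0.0604). UGT73B4, which detoxifies the explosive TNT, read 18.1 and 8.9 in dark WT and 3.5 and 0.8 in WT blue light, all dim. That fall was -2.27 ± 0.89 (adjusted p = 0.0453), and at the higher pseudocount it was -0.61 with an adjusted p of 0.139. It was -2.93 without WT blue replicate 1, and the call was lost without either WT dark array or WT blue replicate 2 (adjusted p from 0.0625 to 0.257). In the mutants UGT73B4 read 8.2 and 5.3, 1.3 and 8.6 and 14.7 and 5.5 in darkness (atmyc2, cop1-6, double mutant) and 1.2 and 7.7, 1.9 and 5.5 and 2.7 and 3 in blue light. With ABA it read 13.1 and 5.5 in WT, 10.2 and 17.3 in atmyc2, 55.1 and 8.6 in cop1-6, and 24.4 and 42.7 in the double mutant, and it rose in the double mutant by 3.11 ± 0.89 (adjusted p = 0.0166, 1.24 with the higher pseudocount), lost without either double mutant blue array or double mutant ABA replicate 2 (adjusted p from 0.055 to 0.132). Its neighbour UGT73B5, linked to redox status in pathogen responses, had group means of 16.4 to 49 and was called in no comparison. The annotated spans of UGT73B4 and UGT73B5 overlap. Group means of UGT73B4 ran over 2.15 to 33.5 and those of UGT73C1 over 0.8 to 67.3. UGT73B4 was kept through cop1-6 and the double mutant with ABA alone, so the selection favoured its rise in the double mutant.

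In subfamily 85, UGT85A2, UGT85A3, UGT85A5 and UGT85A7 form 1 cluster in the genome, and their separate roles in Arabidopsis are less well known. UGT85A3 had group means of 4.55 to 189 and read 17.8 and 9.9 in WT, 10.5 and 13.2 in atmyc2, 9.7 and 1.5 in cop1-6, and 21.7 and 18 in the double mutant in blue light. With ABA, UGT85A3 read 77.1 and 66.5 in WT, 60.6 and 95.6 in atmyc2, 218 and 80.4 in cop1-6, and 181 and 197 in the double mutant. Its dark group means lay between 4.55 and 6.9. It rose with ABA by 2.34 ± 0.59 (adjusted p = 0.00532) in WT (1.47 with the higher pseudocount), 2.59 ± 0.59 in atmyc2 (1.63), 4.69 ± 0.59 in cop1-6 (2.66) and 3.19 ± 0.59 in the double mutant (2.42). The atmyc2 call was lost without atmyc2 ABA replicate 2 (adjusted p = 0.064) and the other 3 held. In cop1-6 it ran from 3.64 without blue replicate 2 to 5.74 without blue replicate 1, and was 3.98 and 5.40 without ABA replicate 1 and 2. It also rose in light in the double mutant by 1.65 ± 0.59 (adjusted p = 0.0341, 0.65, adjusted p = 0.0689 at the higher pseudocount), lost without any one of its 4 arrays (adjusted p from 0.0658 to 0.174).

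UGT85A5, which has been tied to salt tolerance in transgenic tobacco, had group means of 14.2 to 84.8 and rose in light in all 4 genotypes. Rises were 0.98 ± 0.30 in WT, 0.90 ± 0.30 in atmyc2, 0.84 ± 0.30 in cop1-6 and 0.97 ± 0.30 in the double mutant, and none held. They were lost without WT dark replicate 2 (adjusted p = 0.0729) or WT blue replicate 1 (adjusted p = 0.0881) in WT, atmyc2 dark replicate 2 (adjusted p = 0.296) or atmyc2 blue replicate 2 (adjusted p = 0.232) in atmyc2, any one of its 4 arrays (adjusted p from 0.0597 to 0.103) in cop1-6 and double mutant dark replicate 1 or either double mutant blue array (adjusted p from 0.0569 to 0.199) in the double mutant. With ABA it rose by 0.82 ± 0.30 in WT, 1.15 ± 0.30 in atmyc2 and 0.87 ± 0.30 in the double mutant. Those calls were lost without any one of its 4 arrays (adjusted p from 0.0731 to 0.193), atmyc2 blue replicate 1 or either atmyc2 ABA array (adjusted p from 0.0608 to 0.165) and any one of its 4 arrays (adjusted p from 0.115 to 0.155) in that order. UGT85A2, with group means of 106 to 289, read 129 and 127.5 in WT, 124 and 119 in atmyc2, 90.5 and 136 in cop1-6, and 168 and 153.5 in the double mutant in darkness. In blue light UGT85A2 read 106 and 105 in WT, 90.1 and 123 in atmyc2, 303 and 275 in cop1-6, and 245 and 264 in the double mutant. With ABA, UGT85A2 read 187 and 147 in WT, 197 and 189.7 in atmyc2, 321 and 241 in cop1-6, and 242 and 241 in the double mutant. UGT85A2 rose in light in cop1-6 by 1.37 ± 0.20 (adjusted p = 1.59e-05), held, and in the double mutant by 0.66 ± 0.20 (adjusted p = 0.0121), lost without double mutant dark replicate 2 (adjusted p = 0.0848) or double mutant blue replicate 2 (adjusted p = 0.0662). With ABA it rose in WT by 0.65 ± 0.20 (adjusted p = 0.0162) and in atmyc2 by 0.87 ± 0.20 (adjusted p = 0.00378), calls lost without WT blue replicate 1 (adjusted p = 0.071) or WT ABA replicate 1 (adjusted p = 0.176) in WT and without atmyc2 blue replicate 1 (adjusted p = 0.0818) in atmyc2. UGT85A7 (group means 9.75 to 55.8) and UGT85A4 (18.4 to 37.9) were called in no comparison, although the double mutant arrays of UGT85A7 with ABA read 54.2 and 57.3 against 18.5 and 16.1 in blue light.

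UGT87A2, which influences flowering time, had group means of 91 to 491 and read 139 and 136 in WT, 93.8 and 88.1 in atmyc2, 112 and 120.4 in cop1-6, and 229.8 and 189 in the double mutant in darkness. In blue light it read 88.5 and 104 in WT, 106 and 160.3 in atmyc2, 403 and 397 in cop1-6, and 223 and 392.5 in the double mutant. With ABA, UGT87A2 read 299 and 252 in WT, 270.4 and 277 in atmyc2, 478 and 505 in cop1-6, and 378 and 397 in the double mutant. It rose with ABA in WT by 1.51 ± 0.22 (adjusted p = 5.73e-05), held, and in atmyc2 by 1.06 ± 0.22 (adjusted p = 0.0019), lost without atmyc2 blue replicate 1 (adjusted p = 0.0555). In light it rose in cop1-6 by 1.78 ± 0.22 (adjusted p = 3.05e-06), held. UGT80B1, a sterol glucosyltransferase, varied little, with group means of 38.9 to 65, and was called only as a rise in light in cop1-6, 0.54 ± 0.19 (adjusted p = 0.0237), lost without cop1-6 dark replicate 1 (adjusted p = 0.159) or cop1-6 blue replicate 1 (adjusted p = 0.155). UGT73B1 had group means of 47.1 to 133, and in blue light it read 90.6 and 70.6 in WT, 83.1 and 132 in atmyc2, 53.6 and 84.1 in cop1-6, and 52.3 and 128 in the double mutant. With ABA, UGT73B1 read 108 and 94.2 in WT, 110.4 and 87.4 in atmyc2, 60.9 and 112.5 in cop1-6, and 88.2 and 82.3 in the double mutant. It rose in light in atmyc2 by 1.17 ± 0.37 (adjusted p = 0.0121), lost without atmyc2 dark replicate 2 (adjusted p = 0.128) or atmyc2 blue replicate 2 (adjusted p = 0.138).

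The question of what cop1-6 changed was asked with and without AtMYC2, as cop1-6 against WT and as the double mutant against atmyc2. These 2 comparisons share no arrays, but in darkness both carry the poly-A and GAPDH control differences given above. The part of these differences in the calls that they share was not tested. In darkness cop1-6 raised 5 and lowered 5 of the 35 genes against WT, beside 29.3% of all probe sets called, 16.1% higher and 13.2% lower. The double mutant had 8 higher and 6 lower than atmyc2, beside 45.1% of all, 28.8% higher and 16.2% lower. UGT71B1, UGT71C1, UGT71C2, UGT72E2, UGT72E3, UGT74D1, UGT78D1 and UGT78D2 were called in both, in the same direction, which is 80.0% of the first list and 57.1% of the second. Over all tested probe sets the shares called in both in the same direction were 62.3% and 40.5%. In blue light cop1-6 had 7 higher and 4 lower, beside 35.2% of all, 19.1% higher and 16.1% lower. The double mutant had 5 higher and 1 lower, beside 9.65% of all, 4.13% higher and 5.52% lower. UGT72E2, UGT73C1, UGT84A3, UGT85A2 and UGT87A2 were in both, 45.5% and 83.3% of the lists, beside 23.99% and 87.46% over all tested probe sets. With ABA cop1-6 had 2 higher and 1 lower, beside 4.85% of all, 1.31% higher and 3.53% lower. The double mutant with ABA had 2 higher and 1 lower, beside 4.73% of all, 0.969% higher and 3.76% lower, and 0 were shared, beside 42.2% and 43.2% over all tested probe sets. The cop1-6 comparison with ABA called 1 gene without cop1-6 ABA replicate 1 and 6 without replicate 2. After quantile normalization its split was 2 up and 2 down, and that of the double mutant against atmyc2 with ABA was 3 up and 0 down.

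**Figure D5:**
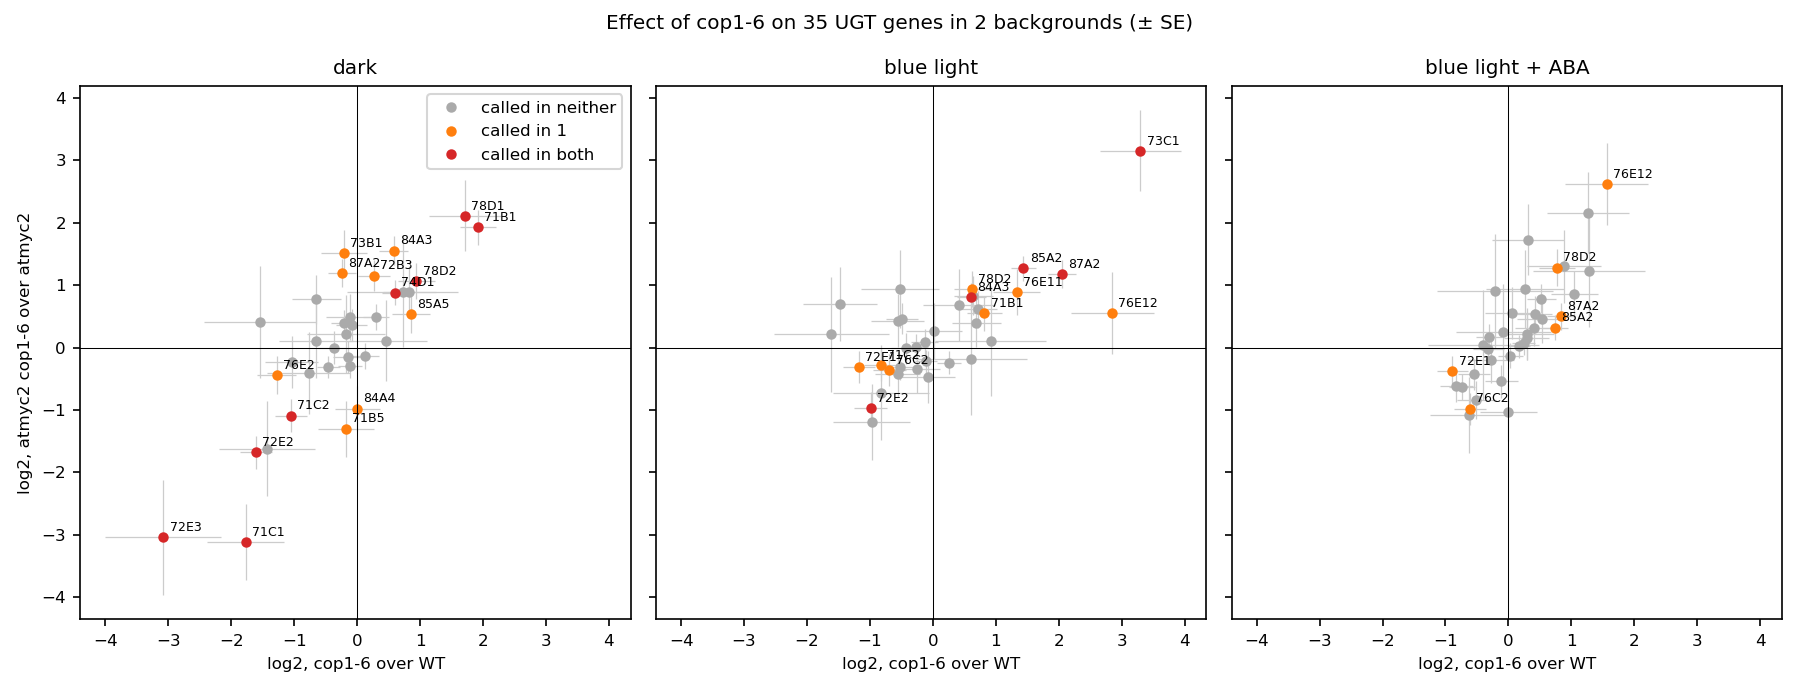
Log2 difference of cop1-6 from WT (x axis) against that of the double mutant from atmyc2 (y axis) for the 35 UGT genes in the 3 conditions, with SE bars and with colours for calls in neither, 1 or both comparisons. In darkness UGT71B1 and UGT78D1 lie at upper right and UGT71C1, UGT72E2 and UGT72E3 at lower left, and in blue light UGT73C1 lies at upper right.

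In darkness the flavonol genes UGT78D1 and UGT78D2, UGT71B1 and the auxin gene UGT74D1 were higher with cop1-6, and the monolignol genes UGT72E2 and UGT72E3 and the neighbours UGT71C1 and UGT71C2 were lower. UGT71B1 was higher in cop1-6 than in WT by 1.92 ± 0.28 (adjusted p = 4.19e-05, 1.23 with the higher pseudocount) and in the double mutant than in atmyc2 by 1.93 ± 0.28 (adjusted p = 2.12e-05, 1.30 with the higher pseudocount), both held. UGT78D1 differed by 1.71 ± 0.57 (adjusted p = 0.0327) in the first comparison (1.08, adjusted p = 0.133, at the higher pseudocount), lost without WT dark replicate 2 or either cop1-6 dark array (adjusted p from 0.0553 to 0.194), and by 2.11 ± 0.57 (adjusted p = 0.0065) in the second (1.38), held. UGT78D2 differed by 0.94 ± 0.29, lost without WT dark replicate 2 (adjusted p = 0.141) or cop1-6 dark replicate 1 (adjusted p = 0.159), and by 1.06 ± 0.29, lost without atmyc2 dark replicate 1 (adjusted p = 0.174). UGT74D1 differed by 0.60 ± 0.20, lost without either WT dark array or cop1-6 dark replicate 2 (adjusted p from 0.0829 to 0.407), and by 0.88 ± 0.20, held. The green markers moved with these genes. In dark WT, atmyc2, cop1-6 and the double mutant, PSAN had means of 40.8, 36.6, 696.4 and 720.9, SBPASE of 38.8, 24.3, 232.8 and 229, and PRK of 120.0, 35.8, 314.2 and 280.2, and all 3 were called higher in both comparisons. Of the 3 root markers 1 was called lower in cop1-6 than in WT and 3 in the double mutant than in atmyc2. The part of these tissue markers in the UGT differences was not tested.

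UGT72E2 was lower with cop1-6 in darkness, with log2 differences of -1.61 ± 0.26 (adjusted p = 1.41e-04) against WT and -1.68 ± 0.26 (adjusted p = 4.77e-05) in the double mutant against atmyc2, both held. UGT72E3 was lower, with log2 differences of -3.08 ± 0.92 (adjusted p = 0.0172) and -3.04 ± 0.92 (adjusted p = 0.012), and -1.12 and -1.09 with the higher pseudocount. Those calls were lost without either WT dark array or cop1-6 dark replicate 1 (adjusted p from 0.0596 to 0.172) and without either atmyc2 dark array or double mutant dark replicate 2 (adjusted p from 0.0501 to 0.137), and were -4.09 without cop1-6 dark replicate 2 and -3.95 without double mutant dark replicate 1. UGT71C1 was lower, with log2 differences of -1.77 ± 0.61 (adjusted p = 0.037), lost without WT dark replicate 2 or either cop1-6 dark array (adjusted p from 0.108 to 0.226), and -3.11 ± 0.61 (adjusted p = 5.10e-04, -2.19 with the higher pseudocount), held. UGT71C2 was lower, with log2 differences of -1.05 ± 0.26, lost without WT dark replicate 1 (adjusted p = 0.0617), and -1.09 ± 0.26, held. Against WT in darkness cop1-6 also had lower UGT76E2 (-1.28 ± 0.31, adjusted p = 0.00491), lost without WT dark replicate 1 (adjusted p = 0.0937) or cop1-6 dark replicate 2 (adjusted p = 0.0645), and higher UGT85A5 (0.86 ± 0.30, adjusted p = 0.0389), lost without any one of its 4 arrays (adjusted p from 0.0795 to 0.166).

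Genes called in darkness for the double mutant against atmyc2 but not for cop1-6 against WT were UGT84A3 (1.55 ± 0.23, adjusted p = 2.64e-05), UGT73B1 (1.51 ± 0.37, adjusted p = 0.00276), UGT87A2 (1.19 ± 0.22, adjusted p = 2.42e-04) and UGT72B3 (1.15 ± 0.25, adjusted p = 0.00124), all higher and held. UGT71B5 (-1.30 ± 0.45, adjusted p = 0.0261, -0.62 with the higher pseudocount) and UGT84A4 (-0.98 ± 0.36, adjusted p = 0.0313) were lower. Those 2 calls were lost without atmyc2 dark replicate 2 or either double mutant dark array (adjusted p from 0.0757 to 0.217) and without any one of its 4 arrays (adjusted p from 0.0686 to 0.142). Whether the effect of cop1-6 differed between the backgrounds is the interaction given further on, and being called in 1 comparison alone does not show it.

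In blue light the largest differences of cop1-6 from WT were in UGT73C1, UGT76E12 and UGT87A2. The selection favoured the higher values of UGT73C1 and UGT76E12 in blue-grown cop1-6. UGT73C1 was higher by 3.30 ± 0.65 (adjusted p = 9.66e-04, 1.25 with the higher pseudocount), held, and in the double mutant against atmyc2 by 3.15 ± 0.65 (adjusted p = 0.00506, 1.28 with the higher pseudocount). The latter was 4.50 without atmyc2 blue replicate 1 and was lost without atmyc2 blue replicate 2 (adjusted p = 0.0786). UGT87A2 was higher by 2.05 ± 0.22 (adjusted p = 4.00e-06), held, and by 1.18 ± 0.22 (adjusted p = 0.00237) against atmyc2, lost without atmyc2 blue replicate 1 (adjusted p = 0.0629). UGT85A2 was higher by 1.44 ± 0.20 (adjusted p = 4.20e-05) and 1.27 ± 0.20 (adjusted p = 5.68e-04), both held. UGT76E12 was higher in cop1-6 by 2.85 ± 0.66 (adjusted p = 0.00321), a call that held, with 3.44 without cop1-6 blue replicate 1 and 2.26 without replicate 2. At the higher pseudocount it was 0.90 with an adjusted p of 0.113, and the call was lost.

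Other genes differed by less in blue light. UGT76E11 was higher in cop1-6 than in WT by 1.33 ± 0.37 (adjusted p = 0.01), lost without WT blue replicate 1 (adjusted p = 0.112) or cop1-6 blue replicate 2 (adjusted p = 0.057), UGT71B1 by 0.82 ± 0.28, lost without WT blue replicate 2 or either cop1-6 blue array (adjusted p from 0.0977 to 0.229), and UGT84A3 by 0.61 ± 0.23, lost without any one of its 4 arrays (adjusted p from 0.0697 to 0.2). UGT72E1 was lower, at -1.17 ± 0.25 (adjusted p = 0.00185), lost without WT blue replicate 1 (adjusted p = 0.0546), and UGT72E2 was lower, at -0.99 ± 0.26 (adjusted p = 0.00713), lost without WT blue replicate 1 (adjusted p = 0.141). UGT71C2 (-0.83 ± 0.26) and UGT76C2 (-0.69 ± 0.26) were also lower, calls lost without WT blue replicate 1 or either cop1-6 blue array (adjusted p from 0.0779 to 0.139) and without any one of its 4 arrays (adjusted p from 0.0599 to 0.248). In the double mutant against atmyc2, UGT72E2 was lower, with a log2 difference of -0.97 ± 0.26 (adjusted p = 0.0238), lost without atmyc2 blue replicate 2 (adjusted p = 0.186) or double mutant blue replicate 2 (adjusted p = 0.25). UGT78D2 (0.94 ± 0.29) and UGT84A3 (0.81 ± 0.23) were higher, calls lost without either atmyc2 blue array or double mutant blue replicate 1 (adjusted p from 0.132 to 0.268) and without atmyc2 blue replicate 1 or either double mutant blue array (adjusted p from 0.0727 to 0.408).

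With ABA, cop1-6 had higher UGT87A2 (0.84 ± 0.22, adjusted p = 0.0306) and UGT85A2 (0.74 ± 0.20, adjusted p = 0.0338) and lower UGT72E1 (-0.89 ± 0.25, adjusted p = 0.047) than WT. None of the 3 held, and they were lost without any one of its 4 arrays (adjusted p from 0.0663 to 0.321), without either WT ABA array or cop1-6 ABA replicate 1 (adjusted p from 0.06 to 0.4) and without either WT ABA array or cop1-6 ABA replicate 2 (adjusted p from 0.121 to 0.371) in that order. In the double mutant against atmyc2, UGT76E12 was higher by 2.62 ± 0.66 (adjusted p = 0.0283) and UGT76C2 lower, with a log2 difference of -0.98 ± 0.26 (adjusted p = 0.0378). These calls were lost without any one of its 4 arrays (adjusted p from 0.0872 to 0.312) for UGT76E12 and without any one of its 4 arrays (adjusted p from 0.0786 to 0.399) for UGT76C2. In the same comparison EXPA18 was called lower (-5.21 ± 0.90, adjusted p = 0.00313) and EXPA7, another root hair expansin, differed by -3.27 ± 0.98 (adjusted p = 0.0666). The root marker PYK10 did not move with them (0.10 ± 0.14, limma adjusted p = 0.763). The part of root tissue in these UGT differences was not tested.

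The question of what atmyc2 changed gave few calls. In darkness 0 genes were higher and 2 lower than in WT, where 11.0% of all probe sets were called, 4.54% higher and 6.43% lower. UGT84A3 and UGT72B3 were lower, with log2 differences of -0.92 ± 0.23 (adjusted p = 0.0142) and -0.90 ± 0.25 (adjusted p = 0.0294), and for both genes the 2 dark atmyc2 arrays lay below the 2 dark WT arrays. Some tissue markers were lower in the same comparison, by limma: PRK (-1.72 ± 0.22, adjusted p = 1.37e-04), SBPASE (-0.65 ± 0.20, adjusted p = 0.0397) and the root marker PYK10 (-0.44 ± 0.14, adjusted p = 0.0435). The other matched markers were not called, with PSAN at -0.16 ± 0.15 and the root markers EXPA7 at 1.30 ± 0.98 and EXPA18 at 0.65 ± 0.90. The part of these markers was not tested. UGT84A3 was lost without WT dark replicate 1 (adjusted p = 0.155) or atmyc2 dark replicate 1 (adjusted p = 0.105) and UGT72B3 without either WT dark array or atmyc2 dark replicate 1 (adjusted p from 0.0587 to 0.244), and at the higher pseudocount neither passed (adjusted p = 0.0512 and 0.0659). In blue light 0 of the 35 were called by limma (0.0123% of all probe sets, 0.00617% higher and 0.00617% lower), with 1 at an unadjusted p under 0.05. With ABA 0 were called (0.0370% of all, 0.0185% higher and 0.0185% lower), with 0 at an unadjusted p under 0.05. Against cop1-6, the double mutant had 0 limma calls in darkness, with 7 genes at an unadjusted p under 0.05, beside 1.67% of all probe sets called, 1.30% higher and 0.364% lower. In blue light it had 0, with 3 at an unadjusted p under 0.05, beside 0.0185% of all, 0.00617% higher and 0.0123% lower. With ABA it had 0, with 2 at an unadjusted p under 0.05, beside 0.253% of all, 0.0679% higher and 0.185% lower.

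Responses themselves were then compared with WT. The light response of cop1-6 differed from that of WT in 10 genes, 6 with a higher and 4 with a lower value, beside 34.8% of all probe sets called, 17.6% higher and 17.2% lower. UGT87A2 differed by 2.29 ± 0.31 (adjusted p = 2.26e-05), UGT76E12 by 3.62 ± 0.94 (adjusted p = 0.00601), UGT76E2 by 1.92 ± 0.44 (adjusted p = 0.0027) and UGT85A2 by 1.65 ± 0.28 (adjusted p = 1.95e-04), and these 4 held. With the higher pseudocount UGT76E12 was 1.00 (adjusted p = 0.214) and UGT76E2 was 1.04, and UGT76E12 was 3.03 without cop1-6 blue replicate 2. UGT73C1 (2.84 ± 0.92, adjusted p = 0.0226, 1.18 with the higher pseudocount) was lost without cop1-6 dark replicate 1, WT blue replicate 1 or cop1-6 blue replicate 2 (adjusted p from 0.0644 to 0.0906). UGT76E11 (1.46 ± 0.52, adjusted p = 0.0379), at 2.05 without cop1-6 dark replicate 2, was lost without WT dark replicate 1, cop1-6 dark replicate 1, WT blue replicate 1 or either cop1-6 blue array (adjusted p from 0.0702 to 0.211).

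The 4 genes with a lower light response in cop1-6 did not hold. UGT71B1 differed by -1.10 ± 0.39 (adjusted p = 0.0366), lost without WT dark replicate 1, cop1-6 dark replicate 2, WT blue replicate 1 or either cop1-6 blue array (adjusted p from 0.0716 to 0.179), and UGT72E1 by -1.09 ± 0.36 (adjusted p = 0.0241), lost without WT dark replicate 2, cop1-6 dark replicate 1, WT blue replicate 1 or cop1-6 blue replicate 1 (adjusted p from 0.0694 to 0.144). UGT74D1 differed by -0.87 ± 0.28 (adjusted p = 0.0211), lost without WT dark replicate 1, cop1-6 dark replicate 2, WT blue replicate 1 or cop1-6 blue replicate 1 (adjusted p from 0.0563 to 0.121), and UGT88A1 by -0.82 ± 0.30 (adjusted p = 0.042), lost without WT dark replicate 1, cop1-6 dark replicate 1, WT blue replicate 1 or either cop1-6 blue array (adjusted p from 0.0867 to 0.202). For UGT71B1 and UGT74D1 the mutant stood above WT already in darkness, as given above.

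In the double mutant the light response differed from WT in 6 genes, 4 higher and 2 lower, beside 26.6% of all probe sets called, 11.2% higher and 15.4% lower. UGT73C1 differed by 3.97 ± 0.92 (adjusted p = 0.00371) and UGT76E2 by 1.79 ± 0.44 (adjusted p = 0.006), both held, and by 1.49 and 0.98 with the higher pseudocount. UGT85A2 (0.94 ± 0.28, adjusted p = 0.0179) was lost without double mutant dark replicate 2 (adjusted p = 0.0667) and UGT87A2 (1.02 ± 0.31, adjusted p = 0.0203) without WT dark replicate 1, double mutant dark replicate 2, WT blue replicate 1 or double mutant blue replicate 2 (adjusted p from 0.051 to 0.117). UGT71B1 (-1.46 ± 0.39, adjusted p = 0.0104, -0.82 with the higher pseudocount, adjusted p = 0.0576) was lost without double mutant dark replicate 2 (adjusted p = 0.0545) or WT blue replicate 1 (adjusted p = 0.0571) and UGT74D1 (-0.80 ± 0.28, adjusted p = 0.0408) without either WT dark array, either double mutant dark array, WT blue replicate 1 or either double mutant blue array (adjusted p from 0.0743 to 0.112). These comparisons share the WT arrays with those of cop1-6. In atmyc2, where 7.94% of all probe sets were called (4.78% higher, 3.16% lower), 1 member differed, UGT87A2, by 1.03 ± 0.31 (adjusted p = 0.0474), a call lost without either WT dark array, either atmyc2 dark array, WT blue replicate 1 or atmyc2 blue replicate 2 (adjusted p from 0.0926 to 0.232).

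The ABA response differed from WT in 0 genes in atmyc2 (0% of all probe sets called, 0 members at an unadjusted p under 0.05), in 1 gene in cop1-6 (6.71% of all, 3.03% higher and 3.68% lower) and in 2 genes in the double mutant (9.26% of all, 3.88% higher and 5.39% lower). UGT87A2 had a smaller ABA response in cop1-6 (-1.21 ± 0.31, adjusted p = 0.0268) and in the double mutant (-1.12 ± 0.31, adjusted p = 0.0313), calls lost without WT blue replicate 1, either cop1-6 blue array, either WT ABA array or cop1-6 ABA replicate 1 (adjusted p from 0.0543 to 0.119) in cop1-6 and without WT blue replicate 1, double mutant blue replicate 2, either WT ABA array or either double mutant ABA array (adjusted p from 0.0626 to 0.137) in the double mutant. In both, the blue light arrays without ABA already stood above those of WT. UGT76E2 had a smaller ABA response in the double mutant, differing by -1.90 ± 0.44 (adjusted p = 0.0145, -1.30 with the higher pseudocount), lost without WT blue replicate 1, WT ABA replicate 1 or double mutant ABA replicate 2 (adjusted p from 0.0575 to 0.0773). A root marker moved beside it. EXPA18 had means of 51.1 in WT and 0.5 in the double mutant with ABA, and its ABA response differed from WT by -4.36 ± 1.27 (adjusted p = 0.043). With ABA the other matched root markers read 56.6 in WT and 4.65 in the double mutant for EXPA7 and 3204 and 3315 for PYK10, and neither was called in this difference. The part of root tissue in the UGT76E2 result was not tested. Of the genes for ABA turnover only BGLU33 could be matched, with means of 19.6, 50.4, 58.8 and 70 with ABA in WT, atmyc2, cop1-6 and the double mutant. By limma it was higher than in WT in cop1-6 with ABA (1.48 ± 0.39, adjusted p = 0.0349). It was not called in atmyc2 (1.32 ± 0.39, adjusted p = 0.963). The double mutant was not compared with WT directly, but its ABA response differed by 2.09 ± 0.56 (adjusted p = 0.0263).

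Whether the effect of atmyc2 depended on cop1-6 was tested as an interaction in each condition. In darkness 2 genes passed, both higher, beside 13.1% of all probe sets called, 8.55% higher and 4.51% lower. UGT87A2 gave 1.43 ± 0.31 (adjusted p = 0.00755), which held. Its dark arrays read lower in atmyc2 than in WT and higher in the double mutant than in cop1-6, with no overlap in either pair. UGT73B1 read 99.7 and 67.8 in WT, 57.2 and 37 in atmyc2, 70 and 72.1 in cop1-6, and 127 and 139 in the double mutant in darkness and gave 1.72 ± 0.52 (adjusted p = 0.0374), lost without WT dark replicate 1, atmyc2 dark replicate 2, cop1-6 dark replicate 1 or either double mutant dark array (adjusted p from 0.0903 to 0.136). In blue light 0 members passed (0% of all), with 5 at an unadjusted p under 0.05, and with ABA 0 passed (0% of all), with 0 at an unadjusted p under 0.05.

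Many UGT genes lie in clusters, and the patterns of neighbours were set side by side over the 12 group means on the log2 scale. All pairs share the same 24 arrays and the 3 conditions, so the correlations are descriptions only. For the 13 pairs of kept genes in 1 subfamily with at most 1 gene between them, the median r was 0.60, and the range was -0.75 to 0.93. For 54 other pairs within a subfamily the median was 0.17, and for 528 pairs of different subfamilies it was 0.03. UGT76E11 and UGT76E12 had r = 0.93, UGT71C1 and UGT71C2 had 0.86, and UGT85A3 and UGT85A5 had 0.84. Some neighbours went apart, since UGT71C4 had r = -0.58 with UGT71C3 and -0.75 with UGT71C5, and UGT84A3 had r = -0.74 with UGT84A4. Cross-hybridisation between such related genes was not tested.

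Glutathione transferases, which conjugate many of the same foreign chemicals to glutathione, were followed as a second conjugating family of GSTU and GSTF genes, with 9 of 12 tested. In WT light 3 rose and 1 fell, with a median log2 fold change of 0.31 beside -0.04 for the UGT genes and -0.02 for all tested probe sets. With ABA in WT 3 rose and 2 fell (median 0.36 beside 0.30 and 0.10). In cop1-6 against WT in darkness 3 were higher and 3 lower (median -1.04 beside -0.18 and -0.04). The shares called were 44.4%, 55.6% and 66.7% in that order, beside 45.9%, 34.9% and 29.3% of all tested probe sets. In WT light the share was thus near that of all probe sets. In WT, GSTU20 (4.46 ± 0.56, adjusted p = 9.02e-06) and GSTU18 (3.70 ± 0.23, adjusted p = 1.81e-10) rose most in light, and GSTU27 fell (-0.67 ± 0.27, adjusted p = 0.0473). With ABA in WT, GSTU26 rose most (2.31 ± 0.44, adjusted p = 8.17e-04). GSTU22 (-2.10 ± 0.40, adjusted p = 6.75e-04) and GSTU20 (-1.97 ± 0.56, adjusted p = 0.0134) fell. Of the genes that supply UDP-sugars, only USP, a UDP-sugar pyrophosphorylase, could be matched, and it rose in WT light by 1.28 ± 0.20 (adjusted p = 4.98e-05).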

How the data were processed

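Total RNA of seedlings was labelled as biotin cRNA and hybridised to 24 Affymetrix arrays. Per the submitters' processing notes, GCOS 1.4 was used, and the deposited values are signal intensities per probe set, already scaled by the authors. The scaling target and any further settings are not given in the sources used here. The number of arrays limits the precision.

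From these intensities, log2 of the signal plus 1 was fitted with limma 3.58.1 in R 4.3.3, as a model of 12 group means with eBayes (trend, robust). The 64 control probe sets and those whose mean signal reached the 40th percentile (19.1) in no group were left out, which kept 16202 of 22810. P-values were Benjamini-Hochberg adjusted within each of 29 comparisons, with a threshold of 0.05. Of the probe sets, 13513 were annotated to 1 gene, 503 to several and 8794 to none, and 3 UGT probe sets with several genes were left out. All 35 members matched the RefSeq gene table by locus, and that table was used for names, neighbouring genes and overlaps of gene spans. No coordinates or sequences are printed.

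The members and gene lists were chosen with earlier results of these data known. By rule every member is named with the range of its group means, and arrays are given for the members with the most extreme called changes. The comparison of the double mutant with atmyc2 was added after values were seen. Alternatives were a higher pseudocount (the 40th percentile), testing dim probe sets too, quantile normalization, a replicate block and leaving out each array. The fit was tested on simulated data.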

Additional observations from a re-analysis of the deposited data

Results flagged for a closer look

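Responses that differed between genotypes by the limma test of the difference itself were picked out, with log2 differences from WT ± SE and Benjamini-Hochberg adjusted p. The tests share the WT arrays, so the genotypes do not give independent evidence, and no explanation was weighed. The selection favoured higher light responses of UGT73C1 and UGT76E12 in cop1-6 and of UGT73C1 in the double mutant. In the light response of cop1-6, values were higher for UGT76E12 (3.62 ± 0.94, adjusted p = 0.00601), UGT73C1 (2.84 ± 0.92, adjusted p = 0.0226), UGT87A2 (2.29 ± 0.31, adjusted p = 2.26e-05), UGT76E2 (1.92 ± 0.44, adjusted p = 0.0027), UGT85A2 (1.65 ± 0.28, adjusted p = 1.95e-04) and UGT76E11 (1.46 ± 0.52, adjusted p = 0.0379). They were lower for UGT71B1 (-1.10 ± 0.39, adjusted p = 0.0366), UGT72E1 (-1.09 ± 0.36, adjusted p = 0.0241), UGT74D1 (-0.87 ± 0.28, adjusted p = 0.0211) and UGT88A1 (-0.82 ± 0.30, adjusted p = 0.042).

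In the light response of the double mutant, values were higher for UGT73C1 (3.97 ± 0.92, adjusted p = 0.00371), UGT76E2 (1.79 ± 0.44, adjusted p = 0.006), UGT87A2 (1.02 ± 0.31, adjusted p = 0.0203) and UGT85A2 (0.94 ± 0.28, adjusted p = 0.0179). UGT71B1 (-1.46 ± 0.39, adjusted p = 0.0104) and UGT74D1 (-0.80 ± 0.28, adjusted p = 0.0408) were lower. In atmyc2 the light response of UGT87A2 was higher (1.03 ± 0.31, adjusted p = 0.0474). The ABA response was lower for UGT87A2 in cop1-6 (-1.21 ± 0.31, adjusted p = 0.0268) and in the double mutant (-1.12 ± 0.31, adjusted p = 0.0313), and for UGT76E2 in the double mutant (-1.90 ± 0.44, adjusted p = 0.0145). In darkness the effect of atmyc2 depended on cop1-6 for UGT73B1 (1.72 ± 0.52, adjusted p = 0.0374) and UGT87A2 (1.43 ± 0.31, adjusted p = 0.00755). UGT87A2 is in 6 of these 22 results. With any single array left out, the results that still passed were the cop1-6 light differences of UGT87A2, UGT76E12, UGT76E2 and UGT85A2, the double mutant light differences of UGT73C1 and UGT76E2, and the dark interaction of UGT87A2.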

How the results depend on the processing

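No call of a named gene changed sign under the alternatives run. Of the calls of single genes, 16 were lost with the pseudocount at the 40th percentile and 172 kept, 14 and 174 without the dim filter, 21 and 167 after quantile normalization, and 4 and 184 with a replicate block. With the higher pseudocount the counts were 0 for atmyc2 against WT in darkness, 5 for cop1-6 against WT with ABA, 1 for the double mutant against cop1-6 in darkness and 6 for the double mutant against atmyc2 with ABA. The atmyc2 light difference gave 0 under that pseudocount, without the filter and after quantile normalization, and the dark interaction gave 1 after quantile normalization. The cause was not tested. Quantile normalization moved the median of all probe sets by -0.27 in the atmyc2 light response, -0.15 in that of cop1-6, -0.16 in the atmyc2 light difference, -0.13 in the dark interaction, -0.14 in the double mutant against atmyc2 in darkness and 0.11 in the double mutant ABA difference.

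Leaving out 1 array, the count in light ran from 12 (without WT dark replicate 2) to 16 in WT, 15 to 20 in atmyc2, 10 (without cop1-6 dark replicate 1) to 15 in cop1-6 and 13 to 17 in the double mutant. With ABA it ran from 8 (without WT blue replicate 1) to 12 in WT, 6 (without atmyc2 blue replicate 1) to 10 in atmyc2, 4 (without cop1-6 blue replicate 2) to 11 (without cop1-6 ABA replicate 2) in cop1-6 and 6 (without double mutant ABA replicate 2) to 10 in the double mutant. For cop1-6 against WT it ran from 5 (without WT dark replicate 2) to 6 in darkness, 0 to 6 with ABA, and 5 (without WT blue replicate 1) to 9 under blue light alone. For the double mutant against atmyc2 it ran from 11 to 13 in darkness, 0 to 0 with ABA and 3 to 6 under blue light alone. For atmyc2 against WT in darkness it was 0 to 2, and for the double mutant against cop1-6 it was 0 to 3 in darkness and 0 to 1 with ABA. Light differences ran from 0 to 2 in atmyc2, 4 (without WT blue replicate 1) to 12 in cop1-6 and 2 to 8 in the double mutant. ABA differences ran from 0 to 2 in cop1-6 and 0 to 4 in the double mutant, and the interaction from 1 to 4 in darkness and 0 to 1 with ABA. A lone remaining array was assumed to vary like the other groups.

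Replicate numbers showed no general pairing, since 8 of 66 group pairs had deviations correlated above 0.1 (range -0.15 to 0.31). This count over all pairs cannot exclude batches shared by only some groups. With a replicate block the counts were 19 in WT light, 12 for cop1-6 against WT in blue light and 11 for the cop1-6 light difference, and no count moved by over 1.5 times. Signals under the dim level limit the folds of UGT72E3, UGT73B4, UGT73C1, UGT71B6, UGT76E12 and UGT85A3, among others.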
